A study of Mus musculus with 12 samples.

Results

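The genes described here encode non-collagen glycoproteins of the extracellular matrix and the enzymes that crosslink it. They are a list of 35 genes chosen by name and function, each read from the array probes that the platform annotation gives its symbol. Of the 35, 32 had a probe on the array and 24 were measured, which means that a probe was detected (p-value below 0.05) on 3 or more of the 12 arrays, among 8858 genes measured of 16593 symbols on the array. *Fn1*, *Fbn1* and *Lama5* had no probe of that name and were not analysed here. *Postn*, *Lum*, *Fbln5*, *Eln*, *Mfap4*, *Loxl4* and *Lama4* were detected on 0 of 12 arrays, and *Loxl3* on 1. Of the measured members, *Thbs3*, *Fmod*, *Mfap2* and *Mfap5* were below detection on some arrays.

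The cells were C2C12 mouse myoblasts, an established line grown in serum-containing medium that can fuse into myotubes. They carried 1 of 2 treatments, both by lipofection: siRNA against *Zbed6* (silenced cells) or a negative control siRNA (control cells), each collected at 48 h and at 96 h. Each of the 4 groups has 3 arrays of a single cell line, numbered as replicates in the labels and described in the study's methods as biological triplicates. ZBED6, a DNA-binding factor that placental mammals took over from a transposon, is known for repressing *Igf2*. The number of probes that carry the name *Zbed6* is 0, so its silencing could not be checked on these arrays.

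In connective tissue and around muscle fibres, matricellular proteins such as SPARC and the thrombospondins bind growth factors, collagens and cell receptors without being structural fibres themselves. Small leucine-rich proteoglycans coat collagen fibrils and set their spacing, and fibulins and microfibril-associated proteins assemble elastic fibres. Lysyl oxidases oxidize lysines of collagen and elastin, which starts the covalent crosslinks between them. Laminins, nidogens and perlecan form the basement membrane, the thin sheet to which each muscle fibre is anchored through integrins and dystroglycan.

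Between 12078 and 12558 probes were detected per array, the median raw signal was 76.5 to 90.8, and arrays of a group correlated at 0.9939 to 0.9965. All levels below are log2 intensity after background correction and quantile normalization, and differences are log2 differences. Levels of different probes are not comparable. Precision is limited by having 3 arrays in each group. Of the myoblast and myotube markers, 6 of the 9 listed were measured (*Myf5* was not), with a mean log2 level per array of 12.5 to 12.64 in silenced and 12.36 to 12.56 in control cells at 48 h, and of 12.56 to 12.66 in silenced and 12.2 to 12.37 in control cells at 96 h. Of the endothelial markers, 0 of 5 were measured.

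ZBED6 is known to bind the core GCTCG, so the promoters of the members were read for it. RefSeq (GRCm38.p6) promoters of 250 bases before to 50 after the start were found for 15 of the 24 measured members. The core, on either strand, was present for 5 of these 15 genes (33.3%), against 32.3% of the 27025 genes with a promoter in the table and 38.7% of the 17492 protein-coding ones. The longer GCTCGC, which contains the core, was present for 4 of 15 (26.7%), against 15.7% of all and 20% of protein-coding genes, and GGCTCGC, which contains both, for 1 of 15 (6.67%), against 5.48% and 7.1%. TATAAA, a general promoter motif, was present for 3 of 15 (20%), against 15.7% and 14.8%. GGGCGG, the GC box, was present for 10 of 15 (66.7%), against 38.2% of all genes with a promoter and 49.2% of the protein-coding ones. A match is a description of the letters and not of binding.

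The promoters of 4 members are printed because the comparisons below turn on them: *Sparc* and *Thbs2* fell at 48 h, *Lama2* was higher in silenced cells at 96 h, and *Hspg2* held the most copies of the core. Capitals mark the core, the TATAAA motif or the GC box on either strand. Read on the other strand, the core is CGAGC and the TATAAA motif is TTTATA. *Hspg2* held 4 copies of the core, 3 of them within GCTCGC, and 5 GC boxes, *Thbs2* held 1 TATAAA, *Lama2* held 1 GC box, and *Sparc* held 0 copies of any of the 3. All are shown 5′ to 3′ on the strand of the gene: *Sparc* at chr11:55420031-55420330 (minus strand), *Thbs2* at chr17:14694213-14694512 (minus), *Lama2* at chr10:27616893-27617192 (minus) and *Hspg2* at chr4:137468553-137468852 (plus).
Sparc: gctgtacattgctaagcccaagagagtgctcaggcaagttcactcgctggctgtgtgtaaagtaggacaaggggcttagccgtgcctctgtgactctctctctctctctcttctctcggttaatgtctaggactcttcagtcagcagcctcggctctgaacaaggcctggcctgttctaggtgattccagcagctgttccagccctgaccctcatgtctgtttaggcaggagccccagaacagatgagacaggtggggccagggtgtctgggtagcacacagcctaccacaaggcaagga
Thbs2: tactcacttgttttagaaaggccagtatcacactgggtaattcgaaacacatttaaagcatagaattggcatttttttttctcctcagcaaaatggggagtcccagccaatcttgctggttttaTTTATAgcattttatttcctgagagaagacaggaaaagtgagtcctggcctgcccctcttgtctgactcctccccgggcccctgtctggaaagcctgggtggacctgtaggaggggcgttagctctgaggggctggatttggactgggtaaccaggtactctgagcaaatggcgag
Lama2: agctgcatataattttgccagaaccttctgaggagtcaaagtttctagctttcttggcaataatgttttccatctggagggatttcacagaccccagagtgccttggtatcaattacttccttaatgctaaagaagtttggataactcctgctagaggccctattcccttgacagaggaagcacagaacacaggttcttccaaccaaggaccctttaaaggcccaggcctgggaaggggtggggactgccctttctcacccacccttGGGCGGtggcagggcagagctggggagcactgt
Hspg2: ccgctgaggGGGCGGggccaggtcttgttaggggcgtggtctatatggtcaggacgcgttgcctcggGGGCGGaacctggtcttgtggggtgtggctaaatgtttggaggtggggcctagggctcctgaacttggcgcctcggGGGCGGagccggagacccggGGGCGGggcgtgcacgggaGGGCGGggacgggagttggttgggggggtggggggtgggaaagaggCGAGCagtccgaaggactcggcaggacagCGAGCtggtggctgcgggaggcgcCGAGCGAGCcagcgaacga

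The comparison at 48 h asks what silencing of *Zbed6* does to these genes early. The members that passed were all lower in silenced cells, and most of them were matricellular. Of 24 measured members, 0 rose and 5 fell (*Thbs2*, *Thbs1*, *Lox*, *Sparc* and *Nid2*), or 20.8%. Over all 8858 genes 10.2% passed the same test, 4.63% higher and 5.61% lower. The difference was below 0 for 18 of 24 members, with a median of -0.171, against a median of 0.000546 over all genes. The silenced arrays all lay below the control arrays for 11 members and above them for 1 (*Dcn*), against 17.4% and 16.7% of all genes.

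*Thbs2* encodes thrombospondin 2, a matricellular protein that restrains vessel growth and takes part in collagen fibril assembly. Its log2 level was 9.13, 9.02 and 9.55 in silenced and 9.91, 10.12 and 10.31 in control cells. The groups did not overlap, and the means of 9.23 ± 0.28 and 10.11 ± 0.20 (SD, n = 3 each) differed by -0.88 (SE 0.15, adjusted p = 0.0146, limma), a 1.84-fold lower level. *Thbs1*, which encodes thrombospondin 1, an activator of latent TGF-beta, was at 8.47, 7.91 and 8.16 in silenced and 9.02, 8.91 and 8.73 in control cells. Again every silenced array lay below every control array, by -0.70 on average (SE 0.15, adjusted p = 0.0231, limma). The paper's RNA sequencing, made on mRNA pooled from the same triplicates, listed *Thbs1* as higher in silenced cells on both days. The paper's own array value for *Thbs1* at 48 h was lower in silenced cells, as it was here. The reason for the opposite direction of the sequencing was not tested.

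*Lox* encodes lysyl oxidase, the founding enzyme of its family. It was at 9.86, 10.12 and 10.44 in silenced and 10.56, 10.94 and 10.88 in control cells, so that the highest silenced array stood just under the lowest control array. The difference was -0.66 (SE 0.16, adjusted p = 0.0367, limma). The other measured lysyl oxidases did not pass: *Loxl1*, an enzyme of elastic fibre crosslinking, differed by -0.33 (SE 0.10, adjusted p = 0.0795, limma), and *Loxl2*, which acts on collagen IV, by -0.20 (SE 0.20, adjusted p = 0.551, limma).

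*Sparc* encodes a collagen-binding glycoprotein that is abundant in remodelling tissue. It was at 13.45, 13.25 and 13.47 in silenced and 13.81, 13.97 and 13.96 in control cells, with no overlap (difference -0.52, SE 0.098, adjusted p = 0.0179, limma). A second *Sparc* probe differed by -0.51. *Nid2* encodes nidogen 2, which links laminin and collagen IV networks. It was at 8.97, 8.99 and 8.99 in silenced and 9.34, 9.47 and 9.36 in control cells, the tightest silenced group of the 5 genes (difference -0.41, SE 0.084, adjusted p = 0.0229, limma).

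Of these 5 genes, *Thbs2* alone passed under every setting run and without any single array. *Sparc* did not pass without control replicates 2 or 3 or silenced replicate 2 (-0.50, -0.50 and -0.45, with adjusted p = 0.0607, 0.0618 and 0.0576, limma). *Thbs1* did not pass without control replicate 1 or 2 or silenced replicate 2 or 3 (-0.64, -0.69, -0.57 and -0.69, with adjusted p = 0.0768, 0.0706, 0.0632 and 0.0612). *Lox* did not pass without control replicate 2 or 3 or silenced replicate 1 or 2 (-0.58, -0.61, -0.52 and -0.65, with adjusted p = 0.105, 0.102, 0.0737 and 0.0989), and *Nid2* without any one array except control replicate 1 (-0.42 to -0.37, adjusted p of 0.053 to 0.0822). The number of members that passed was 4 without control replicate 1, 1 without control replicate 2, 2 without control replicate 3, and 3, 1 and 3 without silenced replicates 1, 2 and 3.

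The other 19 measured members did not pass at 48 h, with differences from -0.35 to 0.12. The nearest to the threshold were *Bgn* (biglycan, a small leucine-rich proteoglycan) at -0.34 (SE 0.096, adjusted p = 0.0545, limma), *Hspg2* (perlecan) at -0.35 (SE 0.10, adjusted p = 0.0625, limma) and *Lamc1* (the laminin gamma 1 chain) at -0.27 (SE 0.089, adjusted p = 0.0846, limma). For all 3 the silenced arrays lay below the control arrays. By group, 3 of 6 measured matricellular members fell, as did 1 of 3 crosslinking enzymes and 1 of 7 basement membrane members, while 0 of 4 proteoglycans and 0 of 4 elastic fibre members passed.

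**Figure D1:**
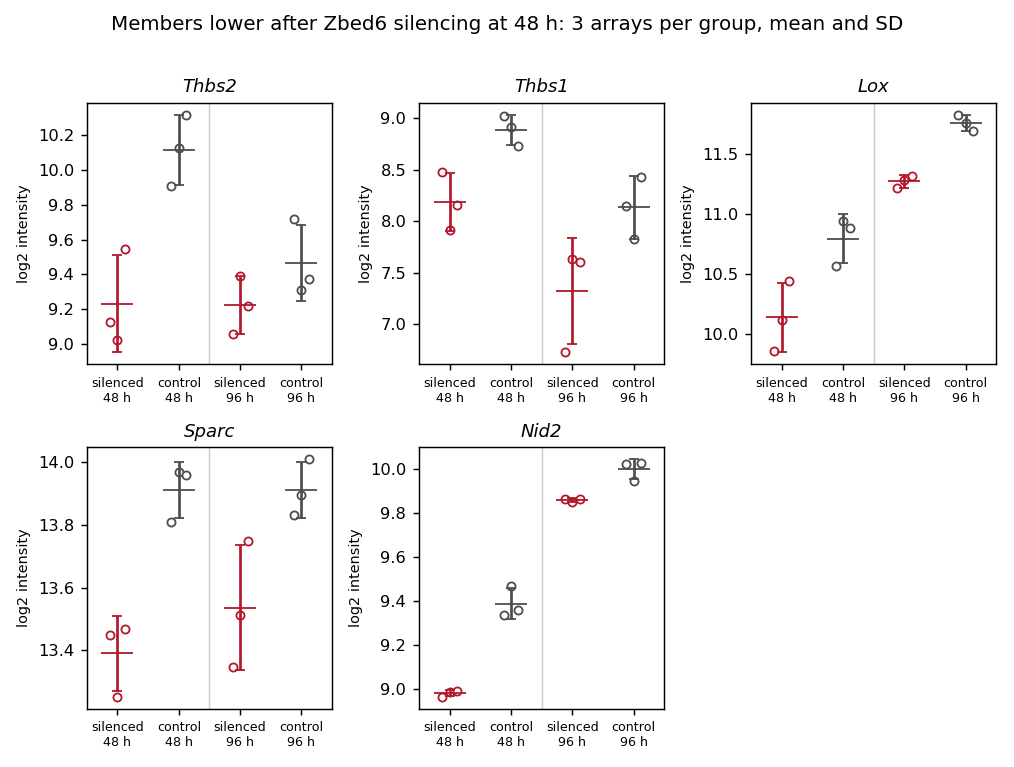
Log2 intensity (vertical axes) of the 5 members that were lower in silenced cells at 48 h, in silenced (red) and control cells (grey) at 48 h and 96 h. Circles are single arrays, and the wide marks and bars are the mean and SD of 3 arrays. In all 5 panels the 48 h silenced arrays lie below the 48 h control arrays, and in all but the *Thbs2* panel they also do so at 96 h.

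At 96 h, members moved both ways. Of 24, 1 rose (*Lama2*) and 1 fell (*Lox*), or 8.33%, against 6.83% of all genes, 3.44% higher and 3.39% lower. The share of members is close to that background. The median over members was -0.131, against 0.00454 over all genes, and 15 of 24 differences were below 0. The silenced arrays lay wholly above the control arrays for 5 members and wholly below for 6, against 16.1% of all genes in each direction.

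*Lox* remained lower, at 11.21, 11.28 and 11.32 in silenced and 11.83, 11.75 and 11.69 in control cells. The gap between the groups exceeded the range within either, and the difference was -0.49 (SE 0.080, adjusted p = 0.0176, limma), a 1.4-fold lower level. It is the one member that passed on both days, each day on its own arrays. At 48 h *Lox* did not pass with the authors' processed values, with median scaling or without the detection filter (adjusted p up to 0.0908, limma). At 96 h it did not pass without control replicate 1 or silenced replicates 1 or 2 (-0.45, -0.46 and -0.49, with adjusted p = 0.0722, 0.0594 and 0.0551, limma).

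*Lama2* encodes the laminin alpha 2 chain of the muscle basement membrane, whose loss causes congenital muscular dystrophy. At 96 h it was at 8.40, 8.33 and 8.16 in silenced and 7.76, 7.67 and 7.95 in control cells. The groups did not overlap, and the difference was 0.50 (SE 0.10, adjusted p = 0.0321, limma), a 1.42-fold higher level. *Lama2* did not pass without control replicate 1 or 2 or silenced replicate 1 or 2 (0.49, 0.44, 0.45 and 0.48, with adjusted p = 0.103, 0.083, 0.0955 and 0.0841, limma). The number of members that passed was 0, 1 and 2 without control replicates 1, 2 and 3, and 0, 0 and 3 without silenced replicates 1, 2 and 3.

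Of the members that had fallen at 48 h, *Thbs1* differed at 96 h by -0.81 (SE 0.24, adjusted p = 0.0796, limma) and *Sparc* by -0.38 (SE 0.11, adjusted p = 0.0795, limma), and neither passed. *Thbs1* had a wide spread there, at 6.73, 7.63 and 7.61 in silenced and 8.15, 7.82 and 8.43 in control cells. *Thbs2* differed by -0.24 and *Nid2* by -0.14, neither past the threshold. *Mgp*, which encodes matrix Gla protein, an inhibitor of calcification, differed by -0.36 (SE 0.10, adjusted p = 0.0719, limma), and *Lamb2*, the laminin beta 2 chain of the neuromuscular junction, by 0.39 (SE 0.11, adjusted p = 0.0673, limma).

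Over the 24 members, 13 were below 0 on both days, 4 above 0 on both, 5 below at 48 h and above at 96 h, and 2 the other way. The differences on the 2 days, which come from separate arrays, had a Pearson r of 0.5 and a Spearman rho of 0.368 across the 24 members, and 0.291 and 0.21 across the 8858 genes. Genes are not independent replicates, and these values are a description.

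**Figure D2:**
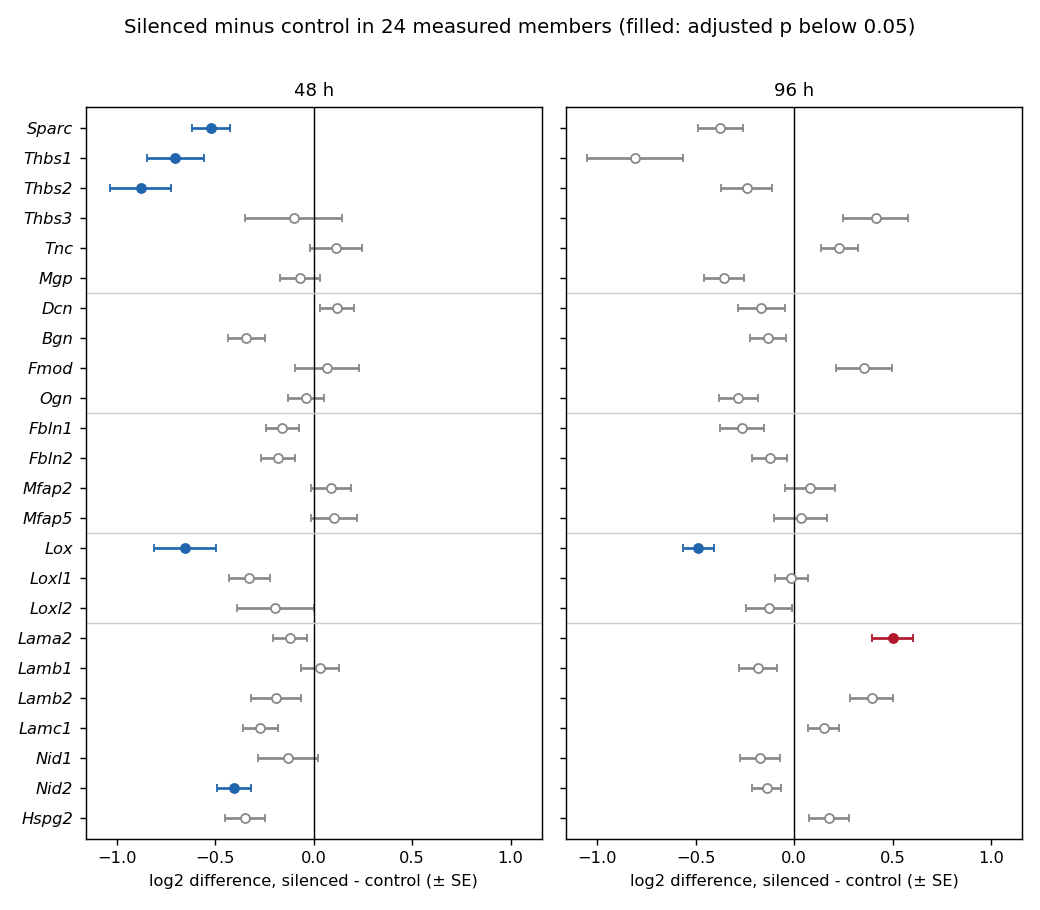
Log2 difference (horizontal axes, silenced minus control, with SE) of the 24 measured members at 48 h (left) and 96 h (right). Filled points passed the threshold (blue lower, red higher), and grey lines part, from the top, matricellular, proteoglycan, elastic fibre, crosslinking and basement membrane members. At 48 h 18 of 24 points lie left of 0, and at 96 h 15 of 24 do, with *Lama2* at 0.50 the highest.

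The difference between the 2 silencing effects was then tested as an interaction, the 96 h difference minus the 48 h difference. Of 24 members, 2 passed, both with a positive value and both laminin chains, or 8.33%, against 4.49% of all genes (2.38% positive and 2.11% negative). For *Lama2* the interaction was 0.62 (SE 0.13, adjusted p = 0.0269, limma). Its 48 h levels were 7.80, 7.94 and 7.85 in silenced and 7.99, 7.93 and 8.02 in control cells, which overlap. *Lamc1*, whose chain is shared by most laminins, had an interaction of 0.42 (SE 0.11, adjusted p = 0.0493, limma). It was at 9.42, 9.36 and 9.23 in silenced and 9.63, 9.58 and 9.61 in control cells at 48 h, and at 9.83, 9.70 and 9.75 in silenced and 9.66, 9.60 and 9.57 in control cells at 96 h. The silenced arrays of *Lamc1* thus lay below all control arrays at 48 h and above them all at 96 h.

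*Lamc1* did not pass without any one array except silenced 48 h replicate 1 (0.37 to 0.45, adjusted p of 0.0685 to 0.11). *Lama2* did not pass without control 48 h replicate 1 or 3, silenced 48 h replicate 3, control 96 h replicate 1 or 2, or silenced 96 h replicate 1 or 2 (0.56 to 0.62, adjusted p of 0.0505 to 0.0643). The number of members that passed the interaction was 0 without control 48 h replicate 1 or 3, silenced 48 h replicate 3, control 96 h replicate 1 or 2, or silenced 96 h replicate 1 or 2. It was 1 without control 48 h replicate 2 or control 96 h replicate 3.

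*Lamb2* and *Hspg2* had interactions of 0.59 (SE 0.18, adjusted p = 0.0731, limma) and 0.53 (SE 0.14, adjusted p = 0.0553, limma) and did not pass. *Lamb2* was at 9.31, 8.91 and 9.11 in silenced and 8.65, 8.72 and 8.78 in control cells at 96 h, and at 8.18, 8.49 and 8.07 in silenced and 8.59, 8.31 and 8.40 in control cells at 48 h. *Hspg2* was at 11.76, 11.83 and 11.50 in silenced and 11.57, 11.45 and 11.54 in control cells at 96 h, and at 11.27, 11.21 and 11.06 in silenced and 11.55, 11.65 and 11.39 in control cells at 48 h. For both, the silenced mean was the lower one at 48 h and the higher one at 96 h. The remaining basement membrane members, *Lamb1*, *Nid1* and *Nid2*, had interactions of -0.22, -0.04 and 0.27 and did not pass. Of all members outside this group, *Thbs2* had the largest interaction, 0.64 (SE 0.22, adjusted p = 0.104, limma), and did not pass.

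**Figure D3:**
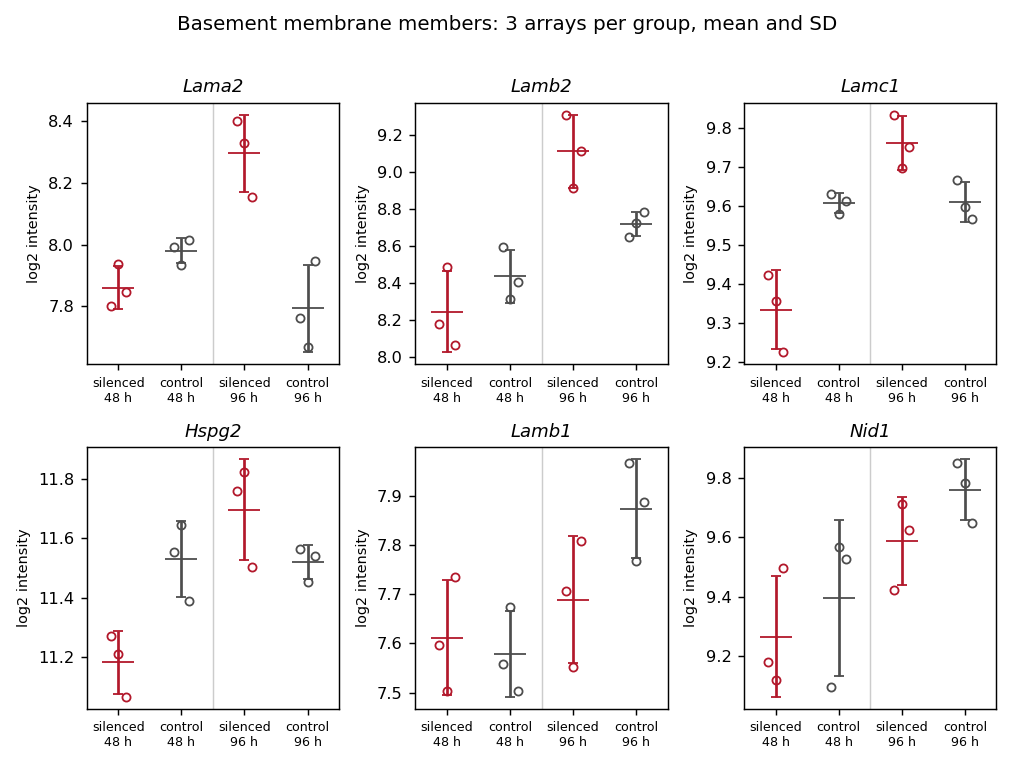
Log2 intensity (vertical axes) of 6 basement membrane members in silenced (red) and control cells (grey) at 48 h and 96 h. Circles are single arrays, and the wide marks and bars are the mean and SD of 3 arrays. *Lamc1* silenced arrays lie below the control arrays at 48 h and above them at 96 h, and *Lama2* silenced arrays lie above at 96 h only.

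More members passed for time in culture than for silencing. The comparisons of 96 h with 48 h use the same arrays as those of silenced with control cells, so the values are given side by side. In silenced cells 12 of 24 members rose and 2 fell (58.3%), against 28.0% of all genes, 15.6% higher and 12.4% lower. In control cells 7 rose and 3 fell (41.7%), against 32.9% of all genes, 17.7% higher and 15.2% lower. The median over members was 0.339 in silenced and 0.081 in control cells, against 0.0189 and 0.0159 over all genes. The 96 h arrays lay wholly above the 48 h arrays for 12 members and wholly below for 2 in silenced cells (22.8% and 19.4% of all genes), and for 10 and 3 in control cells (25.8% and 22.4%). *Mfap5* was undetected on every 48 h array and entered through the 96 h groups, and of the 23 members detected in both days' groups 11 rose and 2 fell in silenced and 6 rose and 3 fell in control cells.

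Markers of cell type changed with time as well. All 5 measured fibroblast markers passed in both treatments. In silenced and control cells *Col1a1* rose by 1.4 and 0.68, *Pdgfrb* by 0.97 and 0.94 and *S100a4* by 0.76 and 0.78. *Pdgfra* rose by 1.22 in control cells. In silenced cells *Pdgfra* was detected on 0 of 3 arrays at 48 h, so its fitted rise of 1.02 does not measure a size. *Dpt* passed as lower, but was detected on 3 of 3 arrays of each 48 h group and 0 of 3 of each 96 h group. It was measured only through the 48 h groups, so its fitted falls of 1.5 and 1.55 do not measure a size. Of the 6 measured myoblast and myotube markers, 2 rose and 2 fell in silenced cells, and 1 rose and 1 fell in control cells. These are 66.7% and 33.3%, against 28.0% and 32.9% of all genes. *Tnnt1* rose by 0.39 in silenced and 0.33 in control cells, and *Ttn* by 0.82 in silenced cells. *Ckm* fell by 0.73 in silenced and 1.21 in control cells, and *Myog* by 0.33 in silenced cells. The part of either list in the changes of the members with time was not tested.

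*Mgp* rose the most of the members. It was at 11.19, 11.21 and 11.32 at 96 h and 9.57, 9.46 and 9.67 at 48 h in silenced cells, and at 11.56, 11.78 and 11.45 at 96 h and 9.55, 9.60 and 9.77 at 48 h in control cells. The rise was 1.67 in silenced and 1.96 in control cells (SE 0.10 each, adjusted p = 2.3e-07 and 6.4e-08, limma), which is 3.19-fold and 3.89-fold. The days were far apart relative to the spread in both treatments.

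*Fbln2* encodes fibulin 2, which sits on elastic fibres and basement membranes. It was at 10.43, 10.28 and 10.48 at 96 h and 9.35, 9.43 and 9.36 at 48 h in silenced cells, and at 10.59, 10.44 and 10.54 at 96 h and 9.53, 9.50 and 9.65 at 48 h in control cells. The rise was 1.02 in silenced and 0.96 in control cells (SE 0.082 each, adjusted p = 2.09e-06 and 4.05e-06, limma). *Lox* rose by 1.13 in silenced and 0.96 in control cells (SE 0.13 each, adjusted p = 4.82e-05 and 0.000183, limma). *Nid2* rose by 0.88 and 0.61 (SE 0.070 each, adjusted p = 2.05e-06 and 4.46e-05, limma). Both thus climbed with time in either treatment while silenced means stayed under control means on each day.

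*Mfap5* encodes a microfibril-associated glycoprotein of elastic fibres. It was detected on 3 of 3 arrays of each 96 h group and on 0 of 3 of each 48 h group. Its 96 h levels were 6.16, 5.91 and 6.02 in silenced and 5.93, 6.28 and 5.78 in control cells. Set against the lowest signal of detected probes at 48 h, the rise was at least 1.57-fold in silenced and at least 1.62-fold in control cells. No p is given, since the gene was measured only through its 96 h groups.

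*Dcn*, which encodes decorin, a proteoglycan that binds collagen fibrils and TGF-beta, went the other way. It was at 11.07, 11.10 and 10.71 at 96 h and 12.04, 12.03 and 12.03 at 48 h in silenced cells, and at 11.01, 11.18 and 11.19 at 96 h and 11.84, 11.91 and 11.99 at 48 h in control cells. It fell by 1.08 in silenced and 0.79 in control cells (SE 0.10 each, adjusted p = 9.28e-06 and 0.000119, limma). Its second probe fell by 1.29 and 0.81. *Ogn*, which encodes osteoglycin, a proteoglycan first described in bone, rose by 0.39 in silenced and 0.63 in control cells (SE 0.093 each, adjusted p = 0.00729 and 0.000287, limma). Its levels were 12.69, 12.95 and 12.82 at 96 h and 12.34, 12.46 and 12.48 at 48 h in silenced cells, and 13.23, 12.98 and 13.10 at 96 h and 12.54, 12.48 and 12.38 at 48 h in control cells. The small leucine-rich proteoglycans therefore did not move as a block with time: *Bgn* rose by 0.45 in silenced cells, and *Fmod* (fibromodulin) did not pass in either treatment.

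Of the thrombospondins, *Thbs1* fell with time in both treatments and *Thbs2* in control cells. *Thbs1* fell by 0.86 in silenced cells (SE 0.23, adjusted p = 0.0125, limma) and by 0.75 in control cells (SE 0.23, adjusted p = 0.0216, limma). *Thbs2* fell by 0.65 in control cells (SE 0.15, adjusted p = 0.00675, limma), whereas in silenced cells, at 9.06, 9.39 and 9.22 at 96 h, it overlapped its 48 h levels. The fall of *Thbs1* in silenced cells did not pass without silenced 48 h replicate 1 (-0.71, adjusted p = 0.0543, limma) and was -0.56 without silenced 96 h replicate 1. In control cells it did not pass without 48 h replicate 1 or 2 or 96 h replicate 1 or 2 (-0.69, -0.74, -0.76 and -0.60, with adjusted p = 0.0753, 0.0526, 0.0503 and 0.0949). *Thbs3*, another family member, was detected on 9 of 12 arrays and did not pass in any comparison on the probe used. A second *Thbs3* probe, detected on 4 arrays, rose with time by 0.55 in silenced cells and had an interaction of 0.57 (SE 0.14, adjusted p = 0.0492, limma, in the fit of all kept probes).

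Basement membrane members rose with time in 5 of 7 cases in silenced cells and in 2 of 7 in control cells (71.4% and 28.6%). Over all genes 28.0% and 32.9% passed in either direction, and 15.6% and 17.7% as higher. In silenced cells the members that rose were *Nid2*, *Lamb2* (0.87, SE 0.13), *Hspg2* (0.52, SE 0.10), *Lama2* (0.43, SE 0.092) and *Lamc1* (0.42, SE 0.078), with adjusted p of 0.00374 or less in limma. In control cells they were *Nid2* and *Lamb1*, the laminin beta 1 chain (0.30, SE 0.095, adjusted p = 0.0305, limma). *Lamb1* did not pass without control 48 h replicate 1 or 3 or control 96 h replicate 1 or 3 (0.29, 0.26, 0.25 and 0.29, with adjusted p = 0.0743, 0.0977, 0.111 and 0.0714). Whether a change with time differs between treatments is the interaction given above, which passed for *Lama2* and *Lamc1*. *Loxl1* also rose in silenced cells, by 0.36 (SE 0.092, adjusted p = 0.0117, limma).

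**Figure D4:**
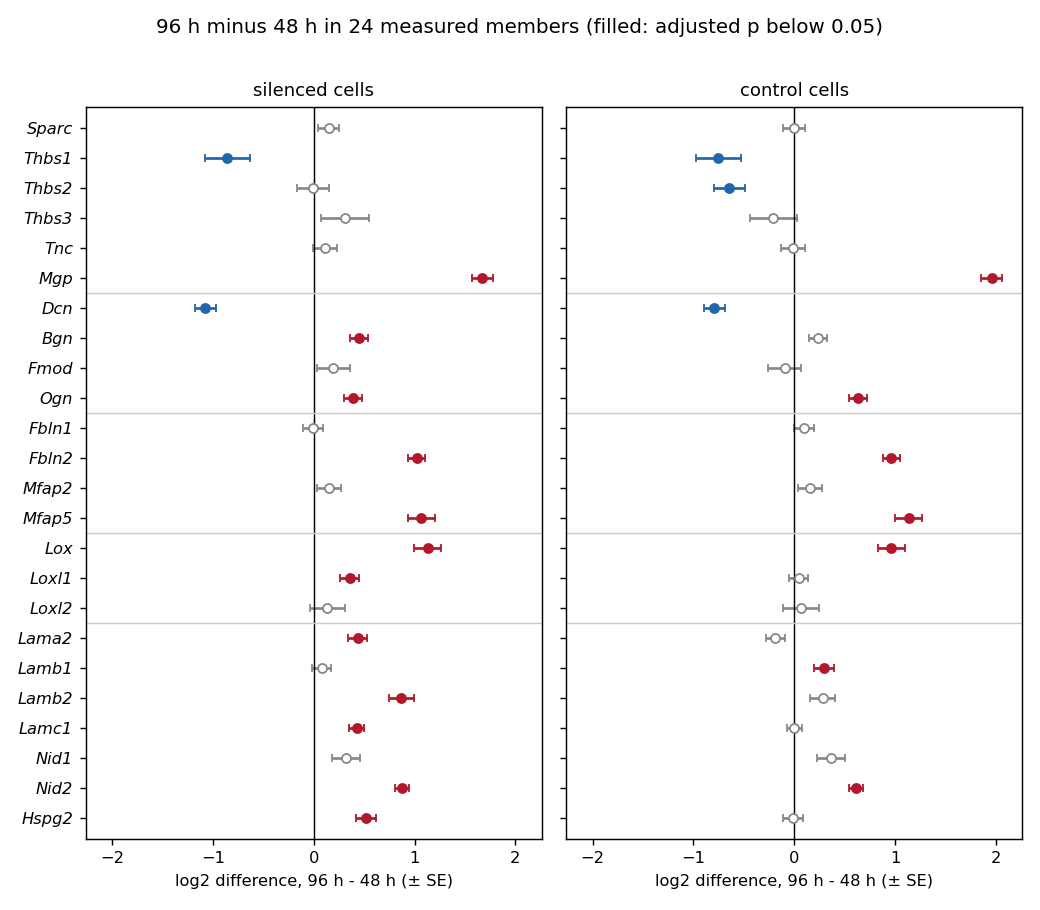
Log2 difference (horizontal axes, 96 h minus 48 h, with SE) of the 24 measured members in silenced (left) and control cells (right). Filled points passed the threshold (blue lower, red higher), in the order of roles of the silencing plot. *Mgp* is the highest point in both panels, at 1.67 and 1.96, and *Dcn* the lowest, at -1.08 and -0.79.

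Of the 7 members with more than 1 kept probe, 5 had a probe with the opposite sign in some comparison, in a fit of all kept probes. *Ogn* at 48 h differed by -0.04 on the probe used and by 0.40 and 0.19 on the others, none past the threshold, and the second probe had an interaction of -0.87 (SE 0.20, adjusted p = 0.039, limma) against -0.24 on the probe used. *Tnc*, which encodes the matricellular protein tenascin C, did not pass on the probe used, while another of its probes fell with time by 0.94 in silenced and 0.97 in control cells. *Sparc* changed with time by 0.15 in silenced cells and -0.001 in control cells on the probe used, and by 0.72 and 0.39 on the second. *Fbln1* (fibulin 1) had probes of both signs at 48 h (-0.16, -0.06 and 0.10) and at 96 h (-0.27, 0.13 and -0.43), and *Fbln2* at 96 h (-0.12 and 0.004). Which transcripts these probes read was not tested.

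Related genes that are not members were counted from 3 further lists. Of other matrix glycoproteins and proteoglycans, 18 of 38 were measured, and 0 rose and 5 fell at 48 h (27.8%, against 10.2% of all genes): *Tgfbi* (-0.72), which encodes a TGF-beta-induced integrin ligand, *Igfbp7* (-0.47), *Ltbp3* (-0.43) and *Ltbp1* (-0.33), which encode carriers of latent TGF-beta, and *Fbln7* (-0.44). At 96 h *Fbln7*, detected on 2 of 3 silenced arrays, differed by -0.83 (SE 0.15, adjusted p = 0.0206, limma) and was the 1 gene of this list that passed (5.56%, against 6.83% of all genes). *Tgfbi* was detected on 1 of 3 silenced and 3 of 3 control arrays at 48 h and on 0 at 96 h. Without the control 48 h group, where it was higher, it would not have been measured. Its place among the 5 rests on that group, and its -0.72 does not measure the size of a fall. Of collagen-modifying and processing enzymes, 16 of 22 were measured, and 4 fell at 48 h (25%) with all 16 below 0: *Bmp1* (-0.65), the procollagen C-proteinase that also activates lysyl oxidase, its enhancers *Pcolce* (-0.38) and *Pcolce2* (-0.41), and the lysyl hydroxylase *Plod3* (-0.36). At 96 h 1 of 16 fell (6.25%), the prolyl hydroxylase *P3h3*, by 0.38. *Bmp1* had an interaction of 0.69 (SE 0.12, adjusted p = 0.0154, limma).

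Of matrix receptors, 19 of 27 were measured. At 48 h 3 fell (15.8%, against 10.2% of all genes): the collagen-binding integrin *Itga11* (-0.86), the laminin-binding *Itgb4* (-0.83) and the syndecan *Sdc3* (-0.48). At 96 h 1 rose (5.26%, against 6.83%), *Itga7*, the laminin-binding integrin of muscle, with a mean of 11.99 ± 0.092 in silenced against 11.62 ± 0.036 in control cells (SD over 3 arrays each; difference 0.38, SE 0.082, adjusted p = 0.036, limma). *Itgb4* had an interaction of 0.70 (SE 0.17, adjusted p = 0.042, limma).

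The mean level of the fibroblast markers was lower in silenced cells, while most single markers did not pass. Of 7 listed, 5 were measured (*Thy1* and *Tcf21* were not), and their mean log2 level per array was 7.30 to 7.40 in silenced and 7.49 to 7.69 in control cells at 48 h, and 7.81 to 7.96 in silenced and 8.02 to 8.05 in control cells at 96 h. At 48 h 1 of the 5 fell (20.0%, against 10.2% of all genes), *Col1a1* by 0.51, and *Pdgfra* (-0.42), *S100a4* (-0.26), *Dpt* (-0.09) and *Pdgfrb* (-0.06) did not pass. At 96 h 1 of 5 fell (20.0%, against 6.83% of all genes), *Pdgfra* by 0.61, and *S100a4* (-0.29), *Pdgfrb* (-0.03) and *Col1a1* (0.21) did not pass. *Dpt* (-0.04) did not pass either and was detected on 0 arrays of either 96 h group. Of the 6 measured myoblast and myotube markers, 0 passed at 48 h and 1 at 96 h (16.7%, against 6.83% of all genes). It was *Ckm*, the muscle creatine kinase, higher in silenced cells by 0.81 (SE 0.12, adjusted p = 0.0126, limma). The part of either list in the results on the members was not tested, and in a bulk sample fewer cells of a type and less RNA per cell cannot be told apart.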

How the data were processed

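Total RNA of each culture was hybridized to 1 Illumina MouseRef-8 v2 array. The authors deposited raw bead intensity per probe, neither background corrected nor normalized, and per the file headers that table pairs every intensity with a detection p-value. The authors also deposited processed log2-scale values made with lumi. How these were transformed and centred is unknown here. Column medians lay between 7.845 and 7.851. The mean of each probe over the arrays was then removed from the processed and the log2 raw values. The deviations of a column correlated with those of its own raw array at r = 0.777 or more, and with any other at 0.642 or less. The processed values were used for comparison only. All value columns belong to a sample. Slides are not given in the sources used here, and no slide block was run.

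Raw intensities were corrected by normexp with the detection p-values, offset by 16, quantile normalized and log2 transformed (neqc, limma 3.58.1, R 4.3.3). Of 25697 probes, 23978 had 1 symbol in the platform annotation, 0 several and 1719 none. A filter kept the probes detected (p-value under 0.05) on 3 or more of the 12 arrays (13095, of which 12332 named), and the brightest stood for each gene. Where every array of a group was undetected, the fold is a bound: the brighter group's mean is set against the mean over the dimmer arrays of the higher of 2 signals, the lowest detected one and that of the gene.

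Silencing was tested on the 6 arrays of each day, after the study's methods, and time and the interaction in 1 fit of 4 group means over 12 arrays, by limma's moderated test with Benjamini-Hochberg adjustment over 8858 genes and a threshold of 0.05. The procedure was tested on simulated data. Statistics, or for some genes the difference alone, were printed for members past the threshold for silencing or the interaction and for members whose probes differ in sign. The same was done for the 8 members with the smallest p for each change with time, and for up to 4 genes of each further list. *Mfap5*, among these 8, was given as a bound without a p. Other genes and values near the threshold were named after their values were seen. Alternatives were the authors' values, median scaling, an offset of 50, omission of the background correction or of the filter, detection on all 12 arrays, the mean over a gene's probes, the replicate number as a block, all 12 arrays or only the 6 of the comparison in a fit, and each array left out. The members and lists were chosen with earlier results of these data known, so no set test was made and no p was adjusted over the list alone.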

Additional observations from a re-analysis of the deposited data

Results flagged for a closer look

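The silencing effect differed between the days, by the interaction test, for 2 members: *Lama2* (0.62, adjusted p = 0.0269, limma) and *Lamc1* (0.42, adjusted p = 0.0493, limma). For *Lama2* the difference was 0.50 at 96 h and -0.12 at 48 h, and for *Lamc1* 0.15 at 96 h and -0.27 at 48 h. Under median scaling neither passed (0.64 and 0.41, adjusted p = 0.0552 and 0.116, limma).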

How the results depend on the processing

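No called member changed sign under any alternative. Of the calls, 1 of 5 at 48 h, 0 of 2 at 96 h and 0 of 2 for the interaction held under every alternative and without each array in turn, against 13 of 14 for time in silenced and 8 of 10 for time in control cells. The number of members lower at 48 h, 5, was 8 with the authors' values, 9 without background correction, 2 with median scaling, 8 with an offset of 50, 8 with all 12 arrays in one fit, and 1 to 4 with an array left out. The number at 96 h, 2 (1 higher, 1 lower), was 6 (2 higher, 4 lower) without background correction and with an offset of 50, 4 (2 and 2) when detection on all 12 arrays was required, 5 (1 and 4) with all 12 arrays in one fit and 0 to 3 with an array left out. The count for time was 13 to 15 in silenced and 8 to 10 in control cells with an array left out. For the interaction, 2, the authors' values gave 4, and the count was 5 without background correction, 0 with median scaling, 4 with an offset of 50 and 0 to 2 with an array left out. The median over members at 48 h, -0.171, was -0.0846 with the authors' values, -0.121 with median scaling and -0.0868 without the filter (-0.244 to -0.12 with an array left out). At 96 h, -0.131, it was -0.0825 with the authors' values (-0.154 to -0.0855). For time in silenced cells, 0.339, it was 0.152 with the authors' values, 0.173 without the filter, 0.373 with detection on all 12 arrays and 0.391 with the mean over probes (0.312 to 0.406). For time in control cells, 0.081, it was 0.155 with median scaling and 0.177 with the mean over probes (0.0336 to 0.125). For the interaction, 0.133, the authors' values gave 0.0645 and omitting the filter gave 0.0629 (0.0456 to 0.234). With the authors' values *Thbs1* at 48 h was -0.35, *Nid2* -0.26, *Lama2* at 96 h 0.21 and its interaction 0.26, each called. *Lox* at 48 h was not called with these values. Without the filter, more undetected genes entered the fit. The cause of the other shifts was not tested. Median scaling moved the share of all genes called at 96 h to 4% higher and 2.35% lower, and with time to 19% and 8% in silenced and 19.7% and 9.03% in control cells.

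With the replicate number as a block, 5 members passed at 48 h, 0 at 96 h (*Lox* -0.49, adjusted p = 0.0504, limma; *Lama2* 0.50, adjusted p = 0.0687), 14 and 10 for time in silenced and control cells, and 1 for the interaction. Same-numbered arrays of a day correlated in their deviations at 0.169, -0.0591 and 0.0779 at 48 h and -0.224, -0.0525 and 0.0341 at 96 h, so the arrays share only a number, and not every array correlated best with its own number. Signal over background limits the 8 members below detection, for which no change could be read, and the 4 detected on only some arrays.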

Other observations

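The related genes outside the member list were also counted for change with time, which passed for 28.0% of all genes in silenced and 32.9% in control cells. Of the 18 measured other matrix glycoproteins, 7 rose and 1 fell in silenced cells, and 8 rose and 2 fell in control cells (44.4% and 55.6%). The 8 include *Omd*, detected on 0 arrays of either 48 h group and on 1 silenced and 2 control arrays at 96 h. It was measured only through the 96 h groups, so its fitted difference of 0.41 in control cells does not measure the size of a rise. *Igfbp7*, which encodes an IGF-binding protein of the matrix, rose by 1.05 in silenced and 0.80 in control cells, and *Ltbp1* by 0.87 and 0.64. *Tgfbi* passed as lower in both, but was detected on 0 arrays of either 96 h group, so its fitted differences of -0.46 in silenced and -1.27 in control cells do not measure the size of the fall. Of the 16 measured collagen-modifying enzymes, 6 rose and 0 fell in silenced cells, and 4 rose and 2 fell in control cells (37.5% in each). *Tgm2*, the transglutaminase that crosslinks matrix proteins, rose by 1.17 in silenced and 1.21 in control cells, and *Pcolce2* by 1.11 and 0.90. Of the 19 measured matrix receptors, 4 rose and 2 fell in silenced cells, and 2 rose and 5 fell in control cells (31.6% and 36.8%), close to the shares of all genes. The laminin receptors *Itga6* and *Dag1* (dystroglycan) fell in both, *Itga6* by 0.96 and 0.69 and *Dag1* by 0.43 and 0.53 in silenced and control cells, while the collagen receptor *Itga11* rose by 1.21 and 0.91.

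Markers of other cell types were few. Of those listed, 3 of 6 were measured for smooth muscle and myofibroblasts, 2 of 6 for adipocytes, 2 of 7 for bone and cartilage, 1 of 5 for leukocytes and 2 of 4 for epithelium. *Lpl*, lipoprotein lipase, was higher in silenced cells at 48 h by 0.98 (SE 0.095, adjusted p = 0.00186, limma), and *Smtn*, smoothelin, at 96 h by 0.45 (SE 0.089, adjusted p = 0.0295, limma).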
